A study of Mus musculus with 4 samples.

Results

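The insulin-like growth factor system was followed through 4 single-nucleus RNA-seq libraries of mouse brain, by cell type, region label and vector. The 9 genes described are the ligands Igf1 and Igf2, the receptors Igf1r and Igf2r, and the binding proteins Igfbp2, Igfbp3, Igfbp4, Igfbp5 and Igfbp7. They were taken as a named list out of 31053 genes counted in each library. No measured value entered the rule, but earlier results of these data were known when the list was chosen. The mice were male C57BL/6J animals of 8 weeks that had received an AAV9 vector into the cisterna magna. AAV-VEGF-C carried mouse VEGF-C, and AAV-CTRL carried a soluble Ig fusion of VEGFR3 domains that do not bind VEGF-C. Each vector group was a pool of 5 brains, 10 in all, and each pool gave 1 cortex-labelled and 1 striatum-labelled library, so each of the 4 groups is 1 library. There is no replicate of any group. Differences below therefore carry counting intervals (95%) and no p-value, and the intervals leave out the spread between mice and between preparations.

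Insulin-like growth factors are small secreted ligands that act through the tyrosine kinase receptor encoded by Igf1r. Igf2r encodes the mannose 6-phosphate receptor, which takes up the second ligand and carries it to lysosomes without a kinase of its own. The binding proteins hold the ligands outside the cell and set how much of them reaches the receptor. In brain, the endothelium of capillaries, the leptomeninges and the choroid plexus stand between circulating ligand and neural tissue, and some neurons and macrophages make Igf1 themselves.

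The libraries held 17168, 20370, 23724 and 17466 nuclei. Every set of 4 values below keeps this order, the cortex-labelled pair before the striatum-labelled pair and AAV-CTRL before AAV-VEGF-C in each. Total counts of transcripts by unique molecular identifier (UMI) ran from 63165470 to 78332657, and any 2 libraries shared 76 to 118 barcodes, at most 0.658% of the smaller one. After doublets were left out, 73225 nuclei stayed, in 39 classes, named "-like" from marker genes or by their leading genes, and a remainder of 1239 unnamed nuclei. The striatum label goes against its markers. Ppp1r1b, a gene of striatal projection neurons, stood at 63.4, 76.6, 18.96 and 18.7 CPM, which are counts scaled to a library total of 1000000, lower under the striatum label than under the cortex label, as were Rgs9, Drd1 and Drd2. Tcf7l2, which marks thalamic neurons among others, stood at 44.4, 41.4, 299 and 334 CPM. The striatum-labelled libraries are therefore named by their label only. Vegfc itself stood at 12.3, 11.8, 13.03 and 11.99 CPM, close between vectors, and whether RNA made from the vector can enter these counts was not tested.

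**Figure D1:**
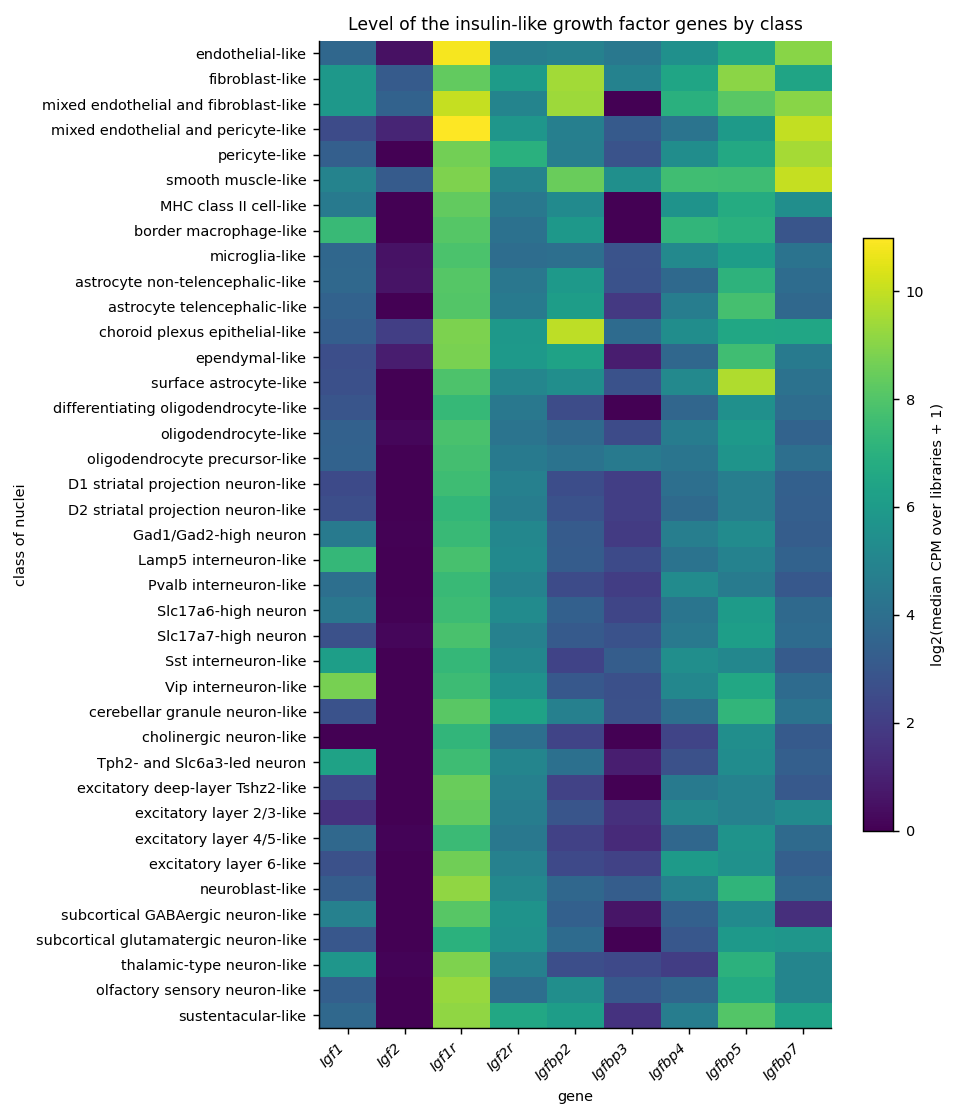
Colour gives log2 of the median CPM over libraries plus 1, for 9 genes (columns) in 39 classes of nuclei (rows), from libraries with at least 30 nuclei of the class. Read down a column, Igf1 is highest in Vip interneuron-like nuclei and Igfbp7 in mural and endothelial-like nuclei, while Igf2r is spread more evenly. Colours are not to be compared between columns, because gene length was not divided out.

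Members differed in the share of their UMIs held by vascular and fibroblast-like classes and by neurons. Vascular and fibroblast-like classes made up 8.85% of the kept nuclei and gave 71.4% of the Igfbp7 UMIs, 60.9% of those of Igf2, 49.6% of those of Igfbp2 and 24.9% of those of Igf1r. Neurons made up 52.8% of the nuclei and gave 75.9% of the Igf1 UMIs and 72.5% of those of Igf2r, but only 14.3% of those of Igfbp2. Neuronal nuclei are deeper and held 71.8% of the UMIs of all genes. The shares for Igf1 and Igf2r are thus both close to that of all RNA counted. Vascular and fibroblast-like classes held 6.38% of all UMIs. Both receptors were broad. 33 of 39 classes lay within a factor of 2 of the middle class for Igf2r and 32 of 39 for Igf1r. The number was 20 to 24 for Igf1, Igfbp3, Igfbp4, Igfbp5 and Igfbp7, and lowest for Igfbp2 at 15. Igf1r still had a highest class at 2025 CPM, against 268 CPM in its middle class.

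Igf1, the main circulating growth factor of the pair, lies on the plus strand of chromosome 10 (chr10:87858265-87937042, GRCm38). Over all kept nuclei it stood at 17.05, 15.6, 24.6 and 27.2 CPM. Its highest class was the Vip interneuron-like one, cortical inhibitory neurons that mostly contact other interneurons, at 476 CPM (425 to 531) in cortex AAV-CTRL and 384 CPM (346 to 424) in cortex AAV-VEGF-C. A Vip interneuron-like nucleus held an Igf1 UMI in 65.00 and 66.5% of cases in these 2 libraries, at a median of 3494 and 3773 UMIs, and in 36.9 and 28.8% after every nucleus was thinned to 1000 UMIs. These 2 levels lay above those of every other class read in libraries with at least 30 of its nuclei, although the class held 0.608% of all nuclei and 13.6% of all Igf1 UMIs. The striatum-labelled libraries held only 22 and 7 such nuclei and were not read for this class.

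Other interneurons followed in steps. Lamp5 interneuron-like nuclei, which include neurogliaform cells, stood at 153 and 163 CPM in the cortex-labelled libraries, Sst interneuron-like nuclei at 72.9 and 68.4 CPM and Pvalb interneuron-like nuclei at 18.1 and 12.2 CPM. No range of these 4 interneuron classes overlapped that of the next. Excitatory neurons of the layer 2/3-like class held almost none, at 1.73 and 2.30 CPM, with an Igf1 UMI in 0.837 and 1.46% of nuclei at a median of 6202 and 6012 UMIs. The Vip, Lamp5 and Sst interneuron-like shares lie far above that share, although the layer 2/3-like class is deeper. This class is among the lowest for Igf1, so the contrast follows from the order of classes. It does not measure free RNA, whose part in these levels was not tested. The layer 2/3-like level was the lowest apart from the cholinergic neuron-like class, which had 1 Igf1 UMI in 96 nuclei over the 4 libraries.

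Outside the cortical interneurons, border macrophage-like nuclei, the macrophages of meninges and perivascular spaces, held Igf1 at 339.8, 125, 158 and 193 CPM, on 22, 10, 28 and 15 UMIs. Microglia-like nuclei, the resident macrophages of the tissue itself, stood lower at 11.2, 9.10, 12.3 and 16.01 CPM, with no overlap between both macrophage classes. Microglia-like nuclei with an Igf1 UMI made up 1.21 to 2.82%, close to the 1.11 to 2.23% of oligodendrocyte-like nuclei at similar depth, so this signal cannot be told from free RNA. Other neurons carried it in the striatum-labelled libraries. Thalamic-type neuron-like nuclei stood at 47.97 and 58.6 CPM and a cluster led by Tph2 and holding Slc6a4, Slc6a3 and Th, genes of serotonin and dopamine neurons together, at 72.5 and 84.1 CPM. A single cluster within the subcortical GABAergic neuron-like class, led by Otx2os1, Hs3st3b1 and Gabrr2, reached 241 CPM (201 to 287, 128 UMIs in 115 nuclei).

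Igf2, the second ligand and an imprinted gene, lies on the minus strand of chromosome 7 (chr7:142650766-142666816). It was close to the limit of detection, with 16, 18, 46 and 35 UMIs per library, or 0.277, 0.26, 0.701 and 0.57 CPM. The few transcripts were not spread evenly. Fibroblast-like nuclei, the meningeal and perivascular fibroblasts, were 2.42% of nuclei and gave 31.3% of the UMIs, at 6.95, 8.47, 10.6 and 7.30 CPM. The mixed endothelial and fibroblast cluster stood at 0, 12.8 and 10.1 CPM, on 0, 5 and 4 UMIs, in the 3 libraries with enough nuclei, and the middle of the 39 classes had a median of 0 CPM. Smooth muscle-like nuclei gave 12.2% and choroid plexus epithelial-like nuclei 6.96%. The fibroblast-like cluster led by Ranbp3l, Slc6a20a and Slc6a13 held 34 of these UMIs. The annotation places the gene Gm49394 on the same strand over 16048 of the 16051 bases of Igf2, and Gm49394 had 0 UMIs in all 4 libraries. How reads that fit both gene models were counted is not given in the sources used here, so the level of Igf2 is uncertain. Igf2os, antisense to Igf2, had 31 UMIs in all, and H19, the imprinted RNA next to it, 68.

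Igf1r, the signalling receptor, lies on the plus strand of chromosome 7 (chr7:67952827-68233668) and stood at 300.03, 282, 337 and 314 CPM. The lowest class was the subcortical glutamatergic neuron-like one at 115 and 138 CPM, and the part of free RNA in the low levels was not tested. Endothelial-like nuclei, which line blood vessels, stood far above at 1834, 1792, 1977 and 1723 CPM, with a UMI in 75.3 to 82.1% of nuclei at medians of 1351 to 1647 UMIs. The cluster that carried endothelial and pericyte markers together was level with them at 2244, 1888, 2161 and 1748 CPM, and the ranges of the pair overlapped. The mixed endothelial and fibroblast cluster stood at 1041, 1096 and 746 CPM in 3 libraries. The nuclei of the endothelial and pericyte cluster held 3174 to 3854 UMIs at the median, above the 1284 to 1557 of pericyte-like nuclei. The simulation called 0.872% of the nuclei in that cluster doublets. Pericyte-like nuclei alone, the contractile cells wrapped around capillaries, stood at 314, 426, 383 and 614 CPM and smooth muscle-like nuclei of larger vessels at 438, 429.9, 542 and 486 CPM. The endothelial list summed to 1911 to 2877 CPM in pericyte-like nuclei, to 7574 to 9633 CPM in smooth muscle-like nuclei and to 13285 to 14407 CPM in endothelial-like nuclei, over 13 genes. The part of these endothelial transcripts in the mural levels of Igf1r was not tested.

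Endothelial-like nuclei were not uniform for Igf1r. The large clusters, led by Slco1a4 and Flt1, pooled to 1817 CPM (1756 to 1880.1, 3333 UMIs in 1230 nuclei) and 2161 CPM (2100.1 to 2223, 4796 UMIs in 1180 nuclei), the first almost wholly from cortex-labelled and the second from striatum-labelled libraries. Another endothelial cluster, almost wholly of the striatum-labelled libraries, led by Cyyr1 and Abcb1a and shallower at a median of 1020 UMIs, pooled to 959 CPM (867 to 1059, 394 UMIs in 389 nuclei). A smaller cluster led by Eln, Cytl1 and Fbln5, genes of elastic fibres and larger vessels, stood at 382 CPM (304 to 475, 81 UMIs in 111 nuclei). Among neurons the neuroblast-like class of newborn neurons stood at 569.6, 556, 626 and 569.7 CPM, and olfactory sensory neuron-like nuclei at 617 CPM in striatum AAV-CTRL, the only library with at least 30 of them. The values of these 2 classes overlapped. Thalamic-type neuron-like nuclei stood at 449 and 469 CPM and microglia-like nuclei at 244, 214, 226 and 259.6 CPM.

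Igf2r lies on the minus strand of chromosome 17 (chr17:12682406-12769664) and stood at 26.3, 24.8, 34.7 and 33.4 CPM. Pericyte-like nuclei were highest at 122, 132, 90.9 and 127 CPM, on 19, 23, 23 and 23 UMIs, and their range did not overlap that of fibroblast-like nuclei at 65.3, 64.3, 66.2 and 61.2 CPM. Sustentacular-like nuclei, support cells of the olfactory epithelium, stood at 95.9 CPM in the 1 library that held enough of them, and cerebellar granule neuron-like nuclei at 82.4 and 75.6 CPM. Microglia-like nuclei had the lowest median, at 16.3, 11.8, 12.3 and 22.9 CPM. Airn, the antisense RNA of the imprinted Igf2r locus (chr17:12741311-12860136, plus strand), overlaps Igf2r by 28354 bases and stood at 61.8, 55.9, 112 and 95.8 CPM. It stood at 660.5, 408, 664 and 509 CPM in pericyte-like nuclei and 10.2, 8.19, 16.9 and 18.3 CPM in microglia-like nuclei, so it too was higher in the first of these classes. Whether the counting used strand is not given in the sources used here, so reads of this pair over the shared bases cannot be told apart.

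**Figure D2:**
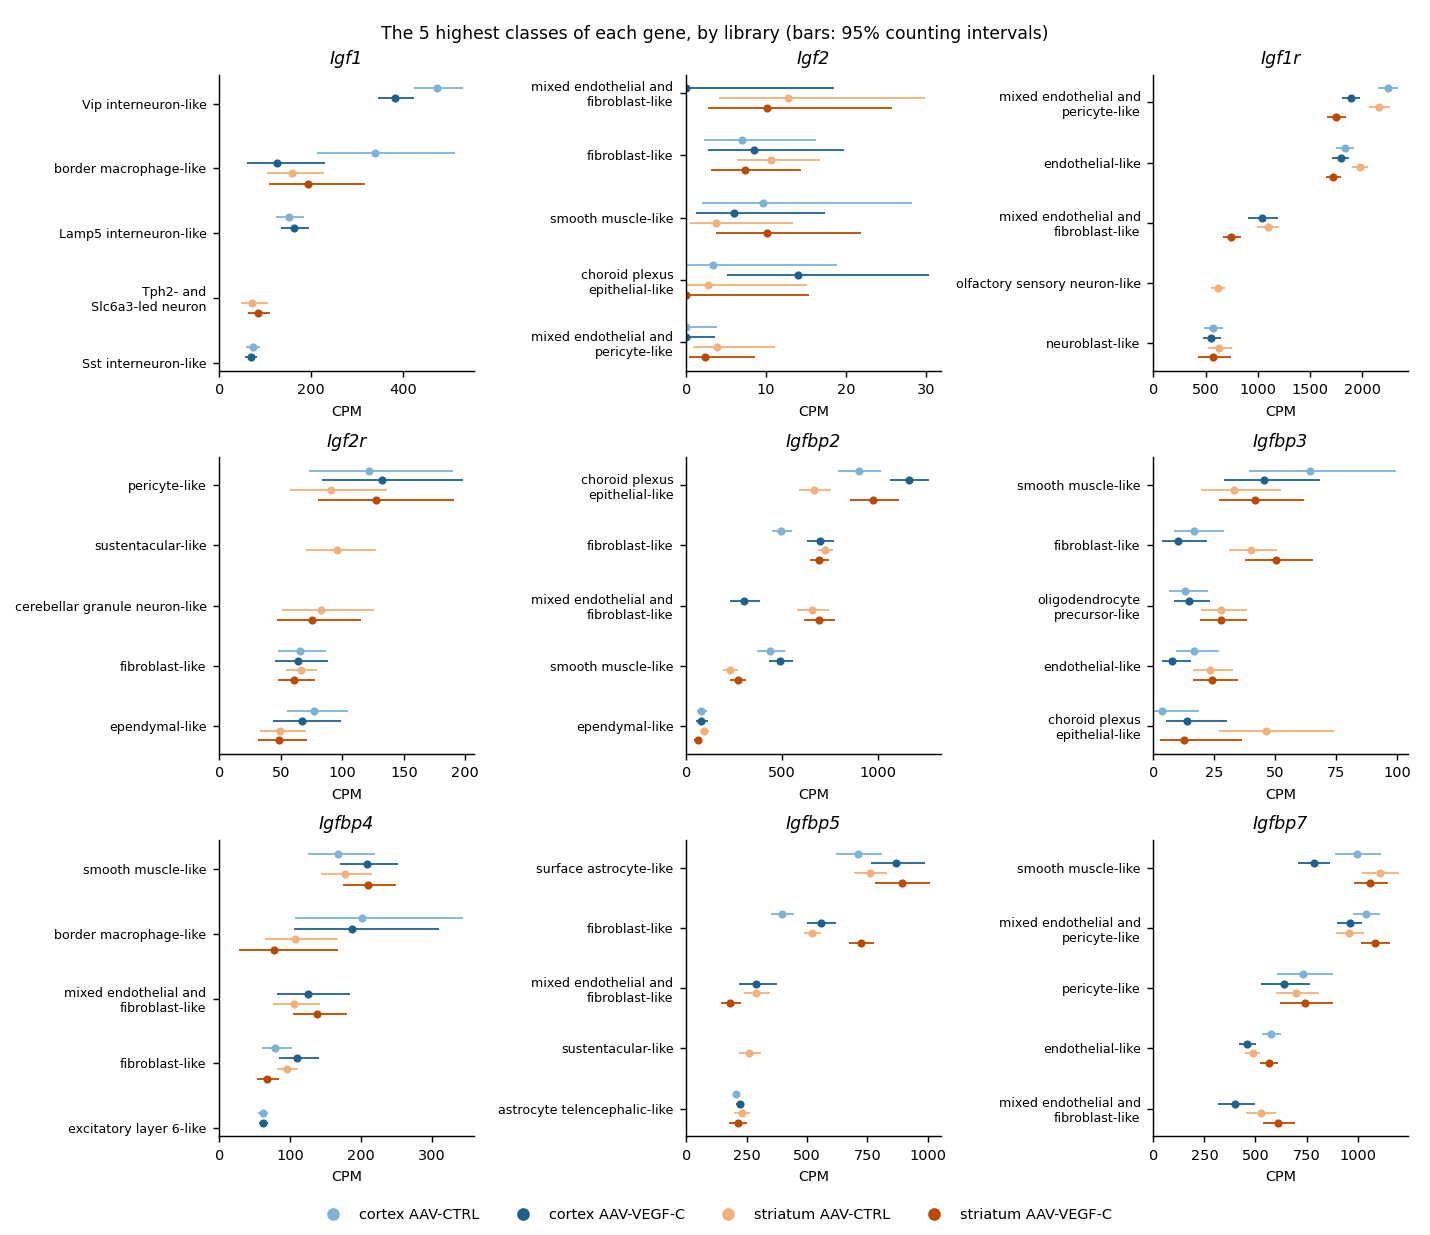
Each panel shows 1 gene in its 5 highest classes, with CPM on a linear axis from 0, 1 point per library with at least 30 nuclei of the class, and bars for the 95% counting interval. Igf1r in endothelial-like nuclei ranges from 1723 to 1977 CPM, and Igfbp7 in smooth muscle-like nuclei from 784 to 1109 CPM, in all 4 libraries.

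The binding proteins were highest in cells of vessels, meninges, choroid plexus and brain surface. Igfbp2 (chr1:72824503-72852474, plus strand) stood at 26.9, 28.03, 47.05 and 37.1 CPM over all nuclei. It was highest in choroid plexus epithelial-like nuclei, which make cerebrospinal fluid, at 901, 1163, 669.7 and 978 CPM, and in fibroblast-like nuclei at 498, 699, 727 and 697 CPM. The ranges of this pair overlapped. The small mixed endothelial and fibroblast cluster stood at 300.3, 658 and 693 CPM in the 3 libraries with enough nuclei. Smooth muscle-like nuclei stood at 438, 491, 229 and 268 CPM, where the 14 fibroblast markers summed to 2107 to 2528 CPM against 5457 to 6834 CPM in fibroblast-like nuclei, and the part of fibroblast transcripts there was not tested. Below a gap came ependymal-like nuclei at 59.8 to 92.1 CPM and telencephalic astrocyte-like nuclei at 67.3, 67.5, 80.4 and 28.4 CPM. Layer 4/5-like excitatory neurons were lowest at 4.04 and 2.75 CPM.

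Igfbp5 (chr1:72857932-72874884, minus strand) lies 5457 bases from Igfbp2 on chromosome 1, tail to tail. It stood at 65.4, 68.5, 107 and 105 CPM. Its highest class was the surface astrocyte-like one, led by Myoc and Gfap, the astrocytes under the pia, at 712, 871, 761 and 892 CPM. Fibroblast-like nuclei stood at 397, 559, 522 and 725 CPM, the mixed endothelial and fibroblast cluster at 290.3, 289 and 181 CPM and telencephalic astrocyte-like nuclei at 208, 221, 229.6 and 212 CPM. Pvalb interneuron-like nuclei were lowest at 22.00 and 22.9 CPM.

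The neighbours Igfbp2 and Igfbp5 parted within single classes. In the fibroblast-like cluster led by Ranbp3l, Slc6a20a and Slc6a13, of which the last pair are solute carriers, Igfbp2 stood at 712, 1006, 986 and 995 CPM and Igfbp5 at 99.9, 101, 274 and 361 CPM. In the fibroblast-like cluster led by Slc47a1, Prg4 and Bnc2, the order was turned, with Igfbp2 at 116, 167, 124 and 127 CPM and Igfbp5 at 926, 1353, 1102 and 1419 CPM. Each gene thus differed several-fold between the clusters in every library, in opposite directions. Igf1 went with Igfbp2, at 52.1, 50.7, 146 and 98.8 CPM in the first cluster and 3.86, 32.4, 15.7 and 13.3 CPM in the second. Telencephalic astrocyte-like nuclei of the cortex-labelled libraries showed the same turn. Igfbp2 stood at 93.7 and 89.5 CPM in the cluster led by Mertk and Gldc and at 29.4 and 39.9 CPM in the cluster led by Thbs4, while Igfbp5 stood at 73.8 and 89.1 and 448 and 428 CPM. The members were left out of the genes used for clustering, but these clusters came from the same nuclei, so the contrast is a description.

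**Figure D3:**
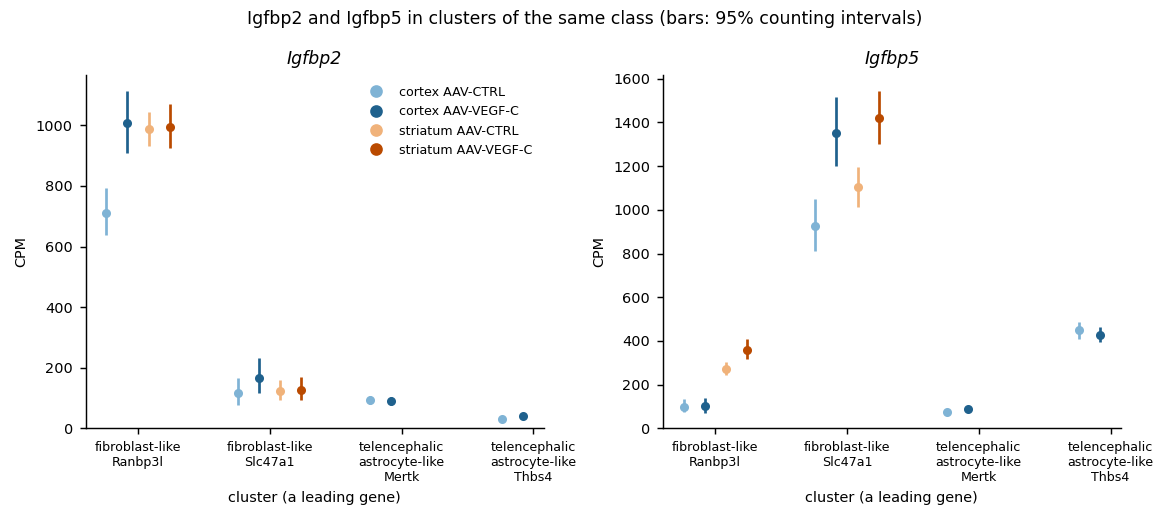
CPM of Igfbp2 (left) and Igfbp5 (right) in 2 fibroblast-like and 2 telencephalic astrocyte-like clusters, named by a leading gene, with 1 point per library of at least 30 nuclei and bars for the 95% counting interval. Igfbp2 is high in the Ranbp3l cluster and Igfbp5 in the Slc47a1 cluster, in all 4 libraries.

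Igfbp7 (chr5:77349240-77408041, minus strand), a matrix protein of vessel walls with weak affinity for the ligands, stood at 50.5, 44.1, 56.3 and 58.99 CPM. It was highest in classes of the vessel wall. Smooth muscle-like nuclei stood at 999, 784, 1109 and 1062 CPM, the mixed endothelial and pericyte cluster at 1042, 960.4, 960.04 and 1086 CPM, pericyte-like nuclei at 731, 638, 699 and 741 CPM and endothelial-like nuclei at 577, 459, 486 and 566 CPM. The ranges of the first pair overlapped, and those of pericyte-like and endothelial-like nuclei did not. Fibroblast-like nuclei were far lower at 86.2, 76.2, 90.4 and 83.1 CPM. The lowest median was that of subcortical GABAergic neuron-like nuclei, at 0, 0, 8.70 and 3.51 CPM. Within the endothelium the clusters led by Slco1a4 pooled to 610.1 CPM (578 to 643, 1354 UMIs in 1180 nuclei) and 509 CPM (477 to 543, 934 UMIs in 1230 nuclei). The endothelial-like cluster led by Eln, Cytl1 and Fbln5 was lower, with its value given below beside Igfbp3.

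Igfbp4 (chr11:99041244-99054392, plus strand) stood at 35.2, 36.7, 17.1 and 11.4 CPM. Smooth muscle-like nuclei were highest at 168, 208, 177 and 209.7 CPM, and border macrophage-like nuclei stood at 201, 188, 107 and 77.3 CPM on 13, 15, 19 and 6 UMIs. The mixed endothelial and fibroblast cluster stood at 125, 105 and 139 CPM in 3 libraries. Among neurons the layer 6-like excitatory class held 61.5 and 62.3 CPM in the cortex-labelled libraries, while thalamic-type neuron-like nuclei were lowest of all classes at 3.51 and 2.42 CPM. A small cluster among the Gad1/Gad2-high neurons, led by Moxd1, Gpr83 and Il1rapl2, reached 354 CPM (304 to 409.6, 180 UMIs in 95 nuclei), with 41, 39, 10 and 5 nuclei in the 4 libraries. Its other leading genes include Pthlh, Kit and Egfr, and before removal 24.6% of its nuclei were called doublets, whose part in its level was not tested.

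Igfbp3 (chr11:7206086-7213923, minus strand), the main carrier of the ligands in plasma, was sparse in brain nuclei at 4.42, 3.05, 6.69 and 6.78 CPM. Smooth muscle-like nuclei stood at 64.4, 45.6, 33.2 and 41.9 CPM and fibroblast-like nuclei at 16.7, 10.2, 40.2 and 50.2 CPM. Oligodendrocyte precursor-like nuclei, the dividing cells of the myelin lineage, stood at 12.8, 14.7, 27.8 and 27.6 CPM. The fibroblast-like range overlapped each of the others, while the smooth muscle-like range lay above the precursor-like one. Subcortical glutamatergic neuron-like nuclei had 0 UMIs in both libraries read, which allows up to 13.8 and 17.2 CPM. Pooled over libraries, smooth muscle-like nuclei held Igfbp3 at 44.01 CPM and Igfbp4 at 193 CPM, and when each library was clustered on its own these became 12.7 and 317 CPM. The highest cluster was the endothelial-like one led by Eln, Cytl1 and Fbln5, at 184 CPM (131 to 252, 39 UMIs in 111 nuclei). The same cluster held Igfbp4 at 245 CPM (183 to 322, 52 UMIs in 111 nuclei) and was low in Igf1r and Igfbp7 for endothelium, with 156 CPM (107 to 219, 33 UMIs in 111 nuclei) for the latter.

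Genes whose levels ran most alike over the 39 classes were sought among 15234 genes with at least 500 UMIs, by Pearson r of log2(CPM + 1) averaged over libraries. The classes share libraries and differ in depth, so these values are descriptions. For Igfbp7 the genes were Adgrf5 (r = 0.90), She (r = 0.89) and Ehd2 (r = 0.89), for Igfbp2 Col4a6 (r = 0.88), Pcolce (r = 0.88) and Mr1 (r = 0.86) and for Igfbp5 Mgst1 (r = 0.83), Clu (r = 0.83) and Sdc4 (r = 0.83). For Igf2r the closest were Airn (r = 0.75), Tacc2 (r = 0.67) and E2f5 (r = 0.66), with Airn first. For the remaining members the closest were Gm15655 (r = 0.70) and Maf (r = 0.66) for Igf1, Actb (r = 0.75), Galnt15 (r = 0.75) and mt-Cytb (r = 0.75) for Igf1r, Hist1h4d (r = 0.75), 9130221H12Rik (r = 0.74) and Iah1 (r = 0.70) for Igfbp3 and Cdk2ap2 (r = 0.78), Nupr1 (r = 0.77) and Sult1a1 (r = 0.76) for Igfbp4.

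The vector comparison set nuclei of AAV-VEGF-C brains against those of AAV-CTRL brains. Ratios are log2 of AAV-VEGF-C over AAV-CTRL within a region label, and a gene was counted as past the fold at 0.58 in size, which is 1.5-fold. Igf2, with fewer than 100 UMIs in every comparison over all nuclei, was not eligible. Under the cortex label 0 of 8 members passed it, where 1.14% of 16990 genes with at least 100 UMIs did. Under the striatum label 1 of 8 passed, Igfbp4, where 2.84% of 17475 genes did. Igfbp4 lay just inside at -0.59 (-0.73 to -0.45), on 698 against 1124 UMIs, and the nearest value outside was Igfbp3 under the cortex label at -0.53 (-0.80 to -0.27), on 211 against 255 UMIs. The median ratio of the 9 members was -0.091 and -0.057, beside medians over all tested genes of -0.0036 and 0.00018.

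**Figure D4:**
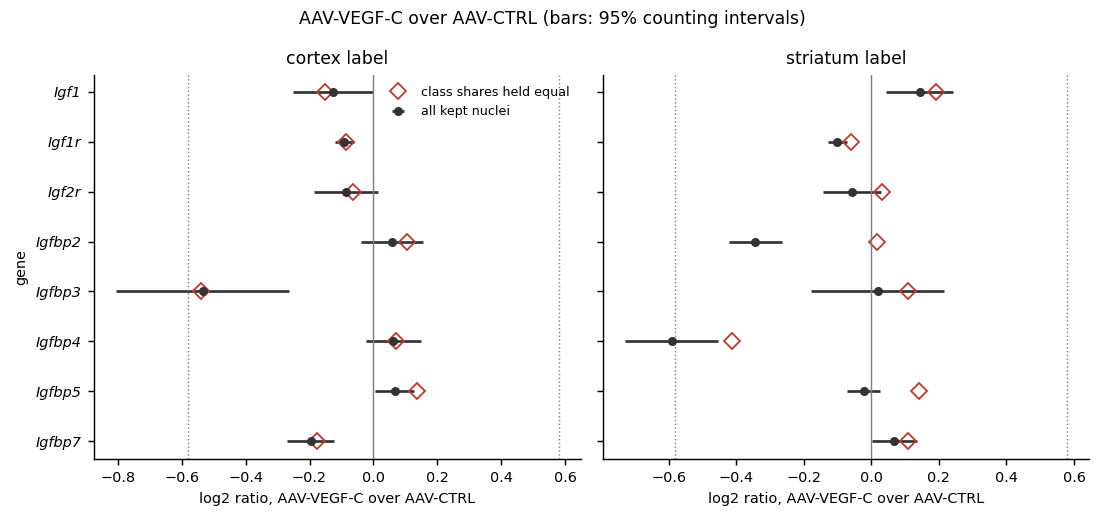
Log2 ratio of AAV-VEGF-C over AAV-CTRL for 8 members under each region label, with 95% counting intervals (filled points), and the ratio after class shares were held equal (open diamonds). Dotted lines mark 1.5-fold. Igf2 is left out for its few UMIs. Igfbp2 under the striatum label moves from -0.34 to 0.017 when class shares are held equal.

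Igf1r was lower with AAV-VEGF-C under both labels, by a small amount. The ratio was -0.091 (-0.12 to -0.061) under the cortex label and -0.10 (-0.13 to -0.073) under the striatum label. In the mixed endothelial and pericyte cluster the ratios were -0.25 (-0.34 to -0.16) and -0.31 (-0.41 to -0.20). Endothelial-like nuclei stood at -0.033 (-0.13 to 0.062) and -0.20 (-0.28 to -0.12), with an interval that spans 0 under the cortex label. Pericyte-like nuclei went the other way, at 0.44 (-0.10 to 0.99) and 0.68 (0.27 to 1.09).

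Igf1 had ratios of opposite sign under the 2 labels, and the difference between labels was not tested. It was -0.13 (-0.25 to -0.00042) under the cortex label and 0.14 (0.043 to 0.24) under the striatum label, and the second value turned to -0.084 once every nucleus was thinned to 1000 UMIs. In Vip interneuron-like nuclei the ratio was -0.31 (-0.53 to -0.092). In thalamic-type neuron-like nuclei it was 0.29 (0.082 to 0.50), and these nuclei were deeper with AAV-VEGF-C, at medians of 6572 and 8437 UMIs. Fibroblast-like nuclei stood at 0.34 (-0.51 to 1.19) and -0.62 (-1.03 to -0.23). Border macrophage-like nuclei stood at -1.44 (-2.68 to -0.30) and 0.29 (-0.72 to 1.24), on 43 to 120 nuclei a library.

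Igfbp2 and Igfbp5 were higher with AAV-VEGF-C in several of their own classes, but not in all. Igfbp5 was higher in fibroblast-like nuclei under both labels. Under the striatum label, Igfbp5 was lower with AAV-VEGF-C in the mixed endothelial and fibroblast cluster. Igfbp2 was lower there in telencephalic astrocyte-like nuclei, with the levels given above. Igfbp5 in fibroblast-like nuclei gave 0.49 (0.26 to 0.72) and 0.47 (0.33 to 0.61), and in surface astrocyte-like nuclei 0.29 (0.023 to 0.56) and 0.23 (0.0023 to 0.45). Within the Slc47a1-led fibroblast-like cluster, where the gene is highest, the ratios were 0.55 (0.29 to 0.80) and 0.36 (0.19 to 0.54). That cluster took 27.2, 26.7, 25.7 and 30.8% of the fibroblast-like nuclei. The surface astrocyte value under the striatum label turned to -0.034 after thinning. Igfbp2 in choroid plexus epithelial-like nuclei gave 0.37 (0.15 to 0.59) and 0.55 (0.28 to 0.81). In fibroblast-like nuclei Igfbp2 gave 0.49 (0.28 to 0.70) under the cortex label and -0.062 (-0.19 to 0.069) under the striatum label. Thalamic-type neuron-like nuclei held more Igfbp5 with AAV-VEGF-C, at 0.70 (0.56 to 0.84), and their 3 clusters with enough nuclei gave 0.45 (-0.044 to 0.95), 0.71 (0.38 to 1.04) and 0.69 (0.53 to 0.85). These nuclei were deeper with AAV-VEGF-C, as given above for Igf1, and no thinned ratio was computed for Igfbp5 in them.

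Class shares accounted, as arithmetic, for part of what was seen over all nuclei. Igfbp2 under the striatum label was -0.34 (-0.42 to -0.26) over all nuclei and 0.017 with class shares held equal. Fibroblast-like nuclei made up 2.11, 1.51, 3.62 and 2.19% of the libraries, fewer with AAV-VEGF-C under both labels, and fewer nuclei of a class cannot be told apart from a different dissection. Igfbp4 under the striatum label was -0.41 with shares held equal. A cluster without a name, led by Col1a1, Col1a2 and Scgb1c1 and holding the bone genes Bglap and Bglap2, had 6, 9, 205 and 12 nuclei in the 4 libraries and Igfbp4 at 337 CPM (282 to 399.6, 132 UMIs in 232 nuclei). With all unnamed nuclei left out, the Igfbp4 ratio was -0.44, no longer past the fold. Igfbp7 was -0.20 (-0.27 to -0.12) under the cortex label and 0.067 (0.00091 to 0.13) under the striatum label. Endothelial-like nuclei held both directions, at -0.33 (-0.51 to -0.15) and 0.22 (0.066 to 0.37).

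Over pairs of a member and a named class with at least 30 nuclei and 20 UMIs, 18 of 165 were past 1.5-fold under the cortex label, where 13.3% of all gene and class pairs were. Under the striatum label it was 33 of 160, where 15.9% of all pairs were. The share under the cortex label lies below its background and the share under the striatum label above it. Of the pairs past the fold, 3 were higher and 15 lower with AAV-VEGF-C under the cortex label. Under the striatum label 14 were higher and 19 lower. The split by direction over all gene and class pairs was not computed, and pairs of a member share libraries. These splits are therefore not read as a result about the members. Intervals spanned 0 under both labels for Igf2r, at -0.086 (-0.19 to 0.015) and -0.057 (-0.14 to 0.029), and for Igf2, at -0.091 (-1.15 to 0.98) and -0.30 (-0.98 to 0.37).

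For the region comparison, ratios are log2 of the striatum label over the cortex label within a vector. With AAV-CTRL 4 of 8 eligible members were past 1.5-fold, and likewise 4 of 8 with AAV-VEGF-C, where 26.9% of genes were in each case, 17328 and 17391 genes. The count was 2 and 3 with median-of-ratios size factors and 2 and 2 after thinning to 1000 UMIs, so it depends on the setting. The share over all genes was not recomputed under these settings, and the count is not read as a result about the members. The median over all genes was itself 0.19 and 0.19, and relative to it Igf1r and, with AAV-CTRL, Igfbp7 lie just below 0. Igfbp4 was lower under the striatum label, at -1.04 (-1.14 to -0.93) and -1.69 (-1.81 to -1.57). Igfbp5 was higher, at 0.71 (0.65 to 0.76) and 0.62 (0.56 to 0.67), but 0.51 and 0.42 with median-of-ratios size factors and 0.46 and 0.28 after thinning, under the fold. Igfbp3 was higher too, at 0.60 (0.37 to 0.83) and 1.15 (0.91 to 1.40). Igf1 was 0.53 (0.42 to 0.65) and 0.80 (0.69 to 0.91), and Igfbp2 0.80 (0.72 to 0.89) and 0.40 (0.32 to 0.49). Igf2 was 1.34 (0.49 to 2.26) and 1.13 (0.27 to 2.04), on 46 against 16 and 35 against 18 UMIs.

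**Figure D5:**
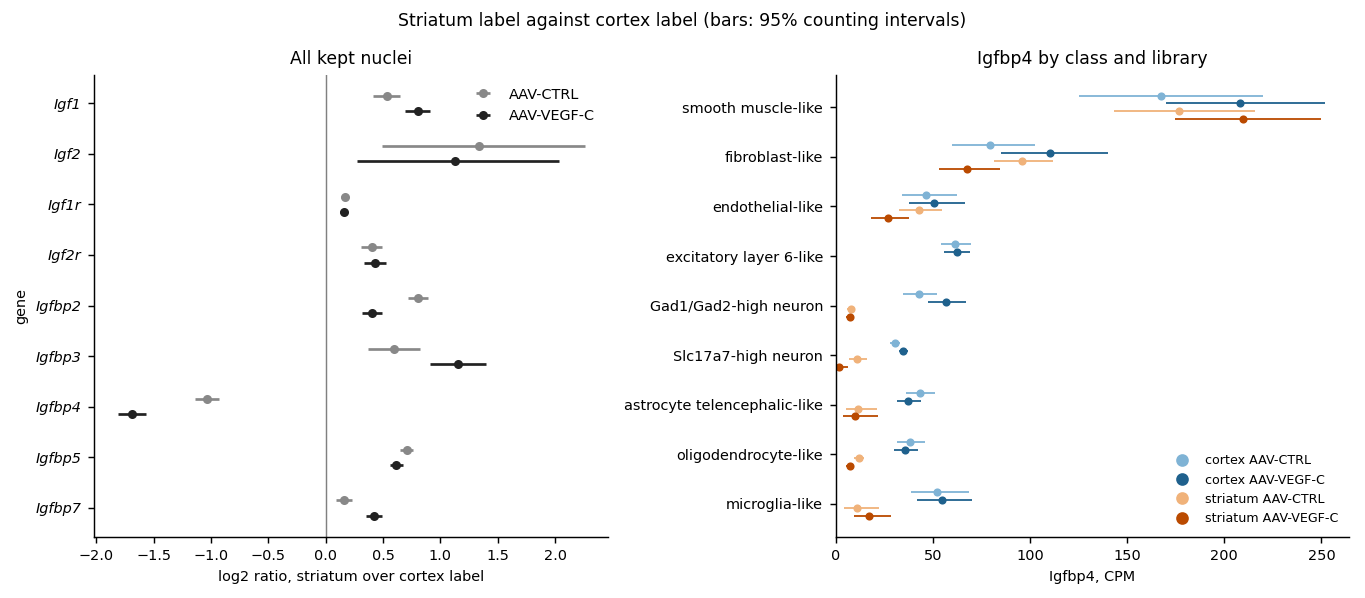
Left, log2 ratio of the striatum label over the cortex label for the 9 members within each vector, with 95% counting intervals. Right, CPM of Igfbp4 by class, 1 point per library with at least 30 nuclei: smooth muscle-like nuclei are near level between labels, while microglia-like and oligodendrocyte-like nuclei are higher in both cortex-labelled libraries.

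Igfbp4 was close between labels in smooth muscle-like nuclei and lower under the striatum label in several classes of neurons and glia. Smooth muscle-like nuclei stood at 0.079 (-0.42 to 0.59) and 0.011 (-0.37 to 0.40), with intervals that span 0. Gad1/Gad2-high neurons stood at -2.48 (-2.93 to -2.03) and -2.97 (-3.44 to -2.52), but the Moxd1-led cluster, mostly of the cortex label, held 180 of their Igfbp4 UMIs. The cluster led by Otx2os1, Lhx1os and Gata3 held 5.89, 3.15, 66.8 and 60.1% of these nuclei in the 4 libraries. It is not the Otx2os1-led cluster of the subcortical GABAergic neuron-like class. The labels thus compare different clusters here. In a cluster of these neurons found under both labels, with Npffr2 and Foxp2 among its leading genes, Igfbp4 stood at 24.98, 20.7, 2.60 and 0 CPM, the last on 0 UMIs in 64 nuclei with a counting interval that reaches 13.5 CPM. Oligodendrocyte-like nuclei stood at 38.5, 35.8, 11.8 and 7.20 CPM and microglia-like nuclei at 52.00, 54.6, 10.8 and 17.2 CPM. The part of free RNA in these glial values was not tested. Igfbp6, a binding protein of fibroblasts that is no member, moved with it, at 64.2, 80.1, 7.68 and 5.72 CPM in microglia-like and 439, 425, 294 and 415 CPM in fibroblast-like nuclei. Glia of the 2 labels also fell into different clusters, so a class of glia compares separate clusters between labels.

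Igf1 and Igfbp3 in fibroblast-like nuclei were higher under the striatum label. Igf1 stood at 1.62 (1.01 to 2.29) with AAV-CTRL and 0.66 (-0.0029 to 1.36) with AAV-VEGF-C, and Igfbp3 at 1.27 (0.37 to 2.29) and 2.31 (1.09 to 3.81). Igfbp5 in the Ranbp3l-led fibroblast-like cluster was higher under the striatum label with no overlap of the counting intervals. The Igf1 interval with AAV-VEGF-C reaches 0. Smooth muscle-like nuclei held less Igfbp2 under the striatum label, at -0.94 (-1.30 to -0.58) and -0.87 (-1.17 to -0.58). The Vip interneuron-like class, which carried most Igf1 per nucleus, took 1.11, 1.25, 0.102 and 0.0425% of the nuclei, and thalamic-type neuron-like nuclei 0.00616, 0.122, 4.51 and 5.76%, so each of these carriers of Igf1 was found mostly under 1 label.

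Around the members, 50 other genes of the pathway were read from a list. Of those with at least 100 UMIs, 0 of 40 under the cortex label and 0 of 42 under the striatum label were past 1.5-fold between vectors, where 1.14% and 2.84% of all genes were, with medians of -0.027 and -0.066. Insulin transcripts were near absent, with 0 UMIs of Ins1 and 0.416, 0.564, 0.351 and 0.375 CPM of Ins2. The insulin receptor Insr stood at 106, 99.5, 137 and 123 CPM, with 281, 233, 357 and 239 CPM in endothelial-like nuclei, and the related Insrr at 0.191, 0.13, 0.747 and 0.587 CPM. Among other binding proteins, Igfbp6 stood at 44.9, 48.6, 14.2 and 12.5 CPM and Igfbpl1, a gene of newborn neurons, at 3.83, 3.63, 4.71 and 4.30 CPM over all nuclei and 362, 398, 287 and 348 CPM in neuroblast-like nuclei. The proteases Htra1, Adam12 and Ide, which cut binding proteins or insulin, stood at 53.4, 50.7, 65.3 and 49.4 CPM, 37.4, 30.8, 60.8 and 47.96 CPM and 36.3, 39.1, 45.6 and 44.2 CPM.

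Grb10, an imprinted adaptor that restrains the receptor, stood at 54.4, 51.5, 132 and 144 CPM, Gab1 at 61.9, 56.1, 109.98 and 110.2 CPM and Grb2 at 102, 99.1, 106 and 104 CPM. Of the kinase cascade below, Gsk3b stood at 262, 277, 298 and 291 CPM. The RNA-binding Igf2bp3 stood at 82.4, 87.00, 76.8 and 91.7 CPM, Igf2bp2 at 7.79, 7.15, 6.97 and 4.84 CPM and Igf2bp1 at 0.0867, 0.145, 0.29 and 0.228 CPM. Vps35, which recycles sorting receptors, and M6pr, a receptor that carries enzymes to lysosomes, stood at 82.97, 81.9, 95.97 and 92.5 CPM and 31.7, 33.96, 39.98 and 47.9 CPM. Between region labels, 7 of 41 were past the fold upward and 1 of 41 downward with AAV-CTRL, and 7 and 3 of 41 with AAV-VEGF-C, where 26.9% of all genes were past it in either direction, a larger share. Irs4 and Pappa gave the 2 highest of these ratios in both vectors and are named after their values were seen, with 0.381, 0.579, 10.7 and 11.96 CPM and 3.90, 3.14, 16.8 and 12.8 CPM. Irs4 encodes an adaptor of the receptor and Pappa a protease that cuts Igfbp4.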

How the data were processed

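Single-nucleus RNA-seq (10x Genomics) was read from 4 deposited matrices of UMI counts per gene and nucleus, made by the authors with Cell Ranger, given as version 5.1.1 with build mm10 in the submitters' processing notes and as 5.0.1 in the matrix headers. Intron counting, annotation release and use of strand are not given in the sources used here. Coordinates are from the GENCODE vM21 annotation of GRCm38, the assembly that mm10 names. Total counts were 63165470 to 78332657 UMIs a library, and columns of other series numbered 0.

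Doublets were scored by simulation in each library, and called nuclei and clusters with at least 40% called were left out. Nuclei were clustered by Leiden (leidenalg 0.10.2, scikit-learn 1.9.0, scikit-image 0.26.0, numpy 2.4.6) on variable genes without the members, and clusters were named from marker lists, by a rule revised after clusters were seen. Counts were summed per class and library and given as CPM with exact Poisson intervals. Ratios carry exact conditional binomial intervals and shares Clopper-Pearson intervals (scipy 1.17.1, 95%), checked on simulated data. All cover counting error only. A count of 0 was given a limit of 3 counts. No test was run, since a group is 1 library. Alternatives were median-of-ratios scaling, no doublet removal, minimums of 1000 UMIs, thinning to 1000 UMIs (642, 709, 1537 and 425 nuclei left out), a low-count minimum of 20, totals without mitochondrial genes and Malat1, clustering by library and, added after seeing the data, leaving out unnamed nuclei. Leaving out a replicate was not possible.

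The members and lists were chosen with earlier results of these data known. Named were all members, up to 3 genes per pathway role by UMI total, any past 1.5-fold between vectors, the 3 most alike genes, and each member's 3 highest classes and its lowest (for Igf2 most classes were at 0), and other genes and classes were added after their values were seen. Some genes that this rule names are not reported here.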

Additional observations from a re-analysis of the deposited data

Results flagged for a closer look

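The ratios of AAV-VEGF-C over AAV-CTRL had opposite signs under the 2 region labels for 2 members, with counting intervals off 0 in each case. Igf1 stood at -0.13 (-0.25 to -0.00042) under the cortex label and 0.14 (0.043 to 0.24) under the striatum label on the log2 scale. Igfbp7 stood at -0.20 (-0.27 to -0.12) and 0.067 (0.00091 to 0.13). The difference between labels was not tested, since each group is 1 library. Both striatum values changed sign when nuclei were thinned to 1000 UMIs, to -0.084 for Igf1 and -0.021 for Igfbp7.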

How the results depend on the processing

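Of 508 alternative values of 106 results, 435 stayed within the counting interval of the value reported (counts of members, within 1.5 times). A further 63 moved, and 10 were counted as reversed. Changes of sign were not counted as reversed where the reported interval held both signs, so more values changed sign than this count. Examples are the AAV ratios of Igfbp4 under the cortex label after thinning and of Igfbp5 under the striatum label without unnamed nuclei. The cause of the moves and reversals was not tested. No paired analysis was possible because each group is 1 library, and leaving out a replicate was not run for the same reason. Depth limits Igf2 most, with 115 UMIs in all. Leaving out unnamed nuclei was chosen after seeing the data.

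With median-of-ratios size factors, region ratios (log2) with AAV-CTRL were 0.34 for Igf1, -0.027 for Igf1r, 0.21 for Igf2r, 0.61 for Igfbp2, -1.23 for Igfbp4, 0.51 for Igfbp5 and -0.036 for Igfbp7, with 2 members past 1.5-fold. With AAV-VEGF-C they were 0.61 for Igf1, -0.039 for Igf1r, 0.23 for Igf2r, 0.21 for Igfbp2, -1.89 for Igfbp4, 0.42 for Igfbp5 and 0.23 for Igfbp7.

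With nuclei thinned to 1000 UMIs, the AAV ratio of Igfbp4 under the cortex label was -0.067, and 1 member was past the fold there. Under the striatum label the AAV ratios were -0.084 for Igf1, -1.34 for Igf2, -0.17 for Igf1r, -0.76 for Igfbp4, -0.15 for Igfbp5, -0.021 for Igfbp7 and -0.034 for Igfbp5 in surface astrocyte-like nuclei. With shares held equal they were -0.048 for Igfbp4 and -0.068 for Igfbp7 under the cortex label, and -0.0039 for Igf1, -1.19 for Igf2, -0.15 for Igf1r, -0.58 for Igfbp4, 0.039 for Igfbp5 and -0.026 for Igfbp7 under the striatum label. Region ratios with AAV-CTRL were 0.36 for Igf1, 2.30 for Igf2, 0.20 for Igf1r, 0.26 for Igf2r, 0.65 for Igfbp2 and 0.46 for Igfbp5, and with AAV-VEGF-C 0.46 for Igf1, 0.12 for Igf1r, 0.28 for Igfbp5 and 0.29 for Igfbp7, with 2 members past the fold in each.

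With each library clustered on its own, AAV ratios with shares held equal were -0.098 for Igfbp2, -0.031 for Igfbp5 and -0.38 for Igfbp7 under the cortex label, and 0.071 for Igf1, 0.25 for Igfbp5 and 0.26 for Igfbp7 under the striatum label. Smooth muscle-like levels became 12.7 CPM for Igfbp3, 317 CPM for Igfbp4 and 1066 CPM for Igfbp7. With no doublets removed, Igfbp2 in choroid plexus epithelial-like nuclei was 874 CPM. Without mitochondrial genes and Malat1 in the total, the region ratio of Igf1r with AAV-CTRL was 0.13. Under the striatum label 0 members were past the fold between vectors under these last 2 settings, with a minimum of 1000 UMIs and without unnamed nuclei. Without unnamed nuclei the AAV ratios under that label were -0.44 for Igfbp4 and 0.037 for Igfbp5, or -0.22 and 0.22 with shares held equal, and region ratios with AAV-CTRL were -1.21 for Igfbp4 and 0.65 for Igfbp5.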
